A study of Mus musculus with 12 samples.

Results

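A set of 10 genes that mark the making and repair of skeletal muscle was followed in mouse scars, chosen by their symbols in the count files. They were Pax7, Myf5, Myod1, Myog, Myf6, Mymk, Myh3, Myh8, Chrna1 and Chrng, 10 of the 35976 genes listed, and Mymk was listed under its older symbol Tmem8c. The comparisons ask how stretching of a scar, and loss of Tem1, a cell surface protein of dermal fibroblasts, bear on the RNA of these genes. RNA of scars was sequenced from 3 male mice in each of 4 groups, aged 8 to 12 weeks: Tem1WT/WT mice with sham treatment or traction, and Tem1lacZ/lacZ mice with either. All mice received a 1.5-cm wound of the back skin, and on day 6 a plastic device was fixed over it. In the traction groups the device was drawn out daily by 1 mm, in all 8 mm, whereas in the sham groups it was worn without lengthening. In Tem1lacZ/lacZ mice, a line backcrossed to C57BL/6 J, Tem1 (listed as Cd248) has been knocked out by a lacZ insertion that leaves none of its coding exon, so that the deletion is found in every cell type and not in fibroblasts alone.

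Skeletal muscle is renewed from satellite cells, which carry the transcription factor Pax7. On injury these cells turn on Myf5 and Myod1 and divide as myoblasts, then turn on Myog and fuse into new fibres with the help of the membrane protein Mymk (myomaker). New fibres first carry embryonic and perinatal myosin heavy chain (Myh3 and Myh8) and the fetal form of the acetylcholine receptor, whose gamma subunit (Chrng) gives way to the epsilon subunit (Chrne) as the nerve matures the fibre. The back skin of the mouse rests on a thin sheet of skeletal muscle, the panniculus carnosus, and muscle RNA can therefore be part of a skin sample.

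The libraries held 41536788 to 64644293 counts. Cd248 had 3883 to 16413 counts in the 6 Tem1WT/WT libraries and 0 to 13 in the 6 Tem1lacZ/lacZ libraries. Markers of keratinocytes and dermal fibroblasts were high in every library, with summed levels of at least 8952 and 7719 CPM (reads of a gene after scaling every library to one total) and 6 markers of the muscle fibre summed to 208 to 7445 CPM. Of 4 heart markers, Myh6, Nppa and Myl7 had at most 5, 8 and 25 counts in any library, and Tnni3 had 26 to 90. Several libraries stood apart from their group by markers of other cell types. Replicate 1 of the Tem1WT/WT traction group had 5766 CPM of 5 neutrophil markers, against 228 and 301 CPM in the other replicates of its group, and replicate 1 of the Tem1lacZ/lacZ traction group had 39971 CPM of 5 keratinocyte markers, against 13274 and 16744 CPM. The 4 adipocyte markers summed to 1886 CPM in replicate 1 of the Tem1lacZ/lacZ sham group (236 and 518 CPM in the others) and to 1296 CPM in replicate 3 of the Tem1lacZ/lacZ traction group (131 and 214 CPM), and the 5 smooth muscle markers to 835 CPM in replicate 1 of the Tem1WT/WT sham group (270 and 349 CPM). Medians of the 10 genes without some of these libraries are given below, but not for every library and comparison.

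In the GENCODE vM21 annotation of GRCm38, Pax7 lies at chr4:139737062-139833528 on the minus strand, Myod1 at chr7:46376474-46379099 on the plus strand and Myog at chr1:134289989-134292548 on the plus strand. Myf5 (chr10:107482908-107486134) and Myf6 (chr10:107492853-107494737) are neighbours on the minus strand of chromosome 10. Mymk lies at chr2:27061636-27072179 on the minus strand. Myh3 (chr11:67078300-67102291) and Myh8 (chr11:67277124-67308634) belong to the cluster of near-identical myosin heavy chain genes on the plus strand of chromosome 11, and reads may have been split or lost between these genes, so that their levels are less certain than those of the other members. Chrna1 lies at chr2:73563215-73580338 on the minus strand and Chrng at chr1:87204657-87212694 on the plus strand. Counts were taken per gene, and the microRNA gene Mir6923 lies within Myh3 on the same strand.

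Factors such as Myod1 and Myog bind the E-box, which has the letters CANNTG on either strand. RefSeq promoters of GRCm38.p6 were matched for 7 of the 10 genes. The 250 bases upstream of the start are shown for 4, chosen after the values were seen. They are Chrna1 and Chrng, the closest pair in the 12 libraries by Pearson's r, Myog, and Myh3. Myh3 had the lowest Pearson's r with mature muscle genes, although not the lowest rank correlation (below). Whether E-boxes bear on how these genes moved together was not tested. The windows end at the RefSeq start, which for Chrng and Myog lies within the span of the GENCODE gene. The last 15 bases of the Myog window, with the E-box nearest the start, are in its annotated GENCODE exon. Each runs 5′ to 3′ on the strand of its gene, and capitals mark each E-box. Chrng is chr1:87205561-87205810 (plus strand), Chrna1 is chr2:73580339-73580588 (minus strand), Myog is chr1:134289754-134290003 (plus strand) and Myh3 is chr11:67078050-67078299 (plus strand).
Chrng: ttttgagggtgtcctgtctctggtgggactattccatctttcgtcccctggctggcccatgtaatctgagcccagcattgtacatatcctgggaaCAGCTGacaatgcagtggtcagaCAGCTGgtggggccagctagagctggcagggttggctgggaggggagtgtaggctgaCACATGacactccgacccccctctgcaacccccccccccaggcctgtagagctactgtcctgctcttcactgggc
Chrna1: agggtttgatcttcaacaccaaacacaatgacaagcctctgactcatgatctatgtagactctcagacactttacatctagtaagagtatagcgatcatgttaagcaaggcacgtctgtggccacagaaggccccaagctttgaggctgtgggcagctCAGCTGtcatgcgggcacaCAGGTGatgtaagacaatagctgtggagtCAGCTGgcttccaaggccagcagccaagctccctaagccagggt
Myog: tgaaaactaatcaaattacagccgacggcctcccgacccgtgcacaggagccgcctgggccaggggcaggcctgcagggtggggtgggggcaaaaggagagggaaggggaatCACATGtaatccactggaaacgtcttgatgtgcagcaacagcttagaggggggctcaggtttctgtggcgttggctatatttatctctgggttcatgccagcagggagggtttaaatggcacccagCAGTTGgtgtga
Myh3: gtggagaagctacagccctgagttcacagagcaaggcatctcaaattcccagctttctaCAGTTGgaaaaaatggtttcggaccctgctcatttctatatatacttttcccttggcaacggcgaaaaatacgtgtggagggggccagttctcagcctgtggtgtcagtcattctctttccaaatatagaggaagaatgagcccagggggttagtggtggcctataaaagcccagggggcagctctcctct

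Chrng and Chrna1 each had 3 E-boxes, Myog had 2 and Myh3 had 1. Of the 3 E-boxes of either receptor gene, 2 had the letters CAGCTG, which are one form of CANNTG. Over 27025 genes with a promoter of this length, 66.0% had at least 1 E-box, 31.7% at least 2 and 12.1% at least 3, and 1.16% had at least 2 copies of CAGCTG. Of the other promoters matched, Myh8 had 1 E-box and Pax7, whose whole window of 250 bases lies in annotated GENCODE exons, and Myf5 had 0. A match of letters is a description of the window, and no binding was measured in these scars.

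The myosins of young fibres were the most plentiful of the 10 genes, and the satellite cell and early myoblast factors Pax7 and Myf5 were the scarcest. The levels below are CPM normalized by TMM, a scaling of library sizes, and for comparison between genes they were divided by the length of the annotated exons in kilobases (kb), which is approximate where a gene has several transcripts. By the median over 12 libraries, in CPM per kb, the order was Myh8 (13.0), Myh3 (6.77), Myf6 (3.84), Myog (3.21), Chrna1 (1.42), Mymk (1.34), Myod1 (0.384), Chrng (0.255), Myf5 (0.0760) and Pax7 (0.0236). The ranges over the 12 libraries overlapped for every pair of neighbours in this order. Pax7 and Myf5 rested on 114 and 125 counts in all and were at 0 in 2 libraries each, whereas the other 8 genes had a count in every library. All 10 genes passed the filter on low counts.

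Pax7, the factor that keeps satellite cells as stem cells, was at 0.499, 0.145 and 0.131 CPM in replicates 1, 2 and 3 of the Tem1WT/WT sham group, and at 0.523, 0 and 0 CPM in the traction group. Without Tem1, it was at 0.0952, 0.0474 and 0.303 CPM in sham and at 0.443, 0.0762 and 0.151 CPM under traction. These values stand for 0 to 23 counts, and a count of 0 in a library allows up to 3 counts. The groups overlapped in all 4 comparisons.

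Myf5, which opens the myoblast programme, was at 0.651, 0.305 and 0.0327 CPM in the Tem1WT/WT sham group and at 0.190, 0 and 0.164 CPM under traction. In the Tem1lacZ/lacZ sham group it was at 0.0952, 0 and 0.282 CPM and under traction at 0.591, 0.152 and 0.113 CPM. Again the groups overlapped, and single libraries held at most 30 counts.

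Myod1, the factor of dividing myoblasts, was at 2.95, 1.44 and 0.622 CPM in the Tem1WT/WT sham group and at 1.28, 0.0441 and 0.534 CPM under traction. It was at 0.714, 0.380 and 1.27 CPM in Tem1lacZ/lacZ sham scars and at 1.33, 0.457 and 0.716 CPM under traction. One library of Tem1WT/WT mice under traction, replicate 2, had only 2 counts of Myod1.

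Myog, which starts the final differentiation of myoblasts, was at 9.81, 9.47 and 4.90 CPM in the Tem1WT/WT sham group. Under traction it was at 11.2 CPM in replicate 1 and at 1.77 and 1.05 CPM in replicates 2 and 3. Tem1lacZ/lacZ mice had 4.64, 2.35 and 12.4 CPM in sham and 20.03, 2.52 and 4.69 CPM under traction. Replicate 1 of both traction groups was thus the highest of its group, and the highest Myog level of all 12 libraries was in a Tem1lacZ/lacZ scar under traction. Myf6, a factor kept on in mature fibres, was at 13.4, 7.32 and 2.31 CPM in the Tem1WT/WT sham group and at 6.64, 0.839 and 1.19 CPM under traction. It was at 4.88, 4.82 and 6.74 CPM in Tem1lacZ/lacZ sham scars and at 9.41, 4.08 and 3.30 CPM under traction. The Tem1lacZ/lacZ sham group was the tightest of the 4 for Myf6, at 5.48 ± 1.09 CPM (SD, n = 3), and the widest was the Tem1WT/WT sham group, at 7.67 ± 5.54 CPM (SD, n = 3).

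Mymk, needed for the fusion of myoblasts, was at 3.47, 3.61 and 1.93 CPM in the Tem1WT/WT sham group and at 4.57, 0.706 and 0.452 CPM under traction. In Tem1lacZ/lacZ mice it was at 2.12, 0.427 and 4.56 CPM in sham and at 6.87, 1.47 and 1.32 CPM under traction. The pattern over libraries was that of Myog, and Myog was the gene most like Mymk among all genes tested (Pearson's r = 0.956 over 12 libraries, given as a description).

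Myh3, the embryonic myosin heavy chain, was at 72.0, 74.3 and 47.6 CPM in the Tem1WT/WT sham group and at 74.3, 25.3 and 19.2 CPM under traction. Tem1lacZ/lacZ scars had 34.4, 5.05 and 70.0 CPM in sham and 225, 33.0 and 31.0 CPM under traction, the last group having a mean of 96.2 ± 111 CPM (SD, n = 3). The highest library had 44.4 times as much Myh3 as the lowest, a wider range than the 15.9 to 19.1 times of Myog, Myf6, Mymk, Myh8, Chrna1 and Chrng. Myh8, the perinatal myosin heavy chain, was at 236, 254 and 130 CPM in Tem1WT/WT sham scars and at 228, 78.2 and 17.2 CPM under traction. It was at 155, 23.96 and 276 CPM in the Tem1lacZ/lacZ sham group and at 246, 102 and 151 CPM under traction.

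Chrna1, the alpha subunit of the muscle acetylcholine receptor, was at 12.4, 10.4 and 5.85 CPM in the Tem1WT/WT sham group and at 14.6, 1.501 and 1.93 CPM under traction. It was at 6.45, 6.001 and 13.5 CPM in Tem1lacZ/lacZ sham scars and at 25.1, 4.88 and 5.54 CPM under traction. Chrng, the gamma subunit of the fetal receptor, was at 2.41, 1.57 and 0.982 CPM and at 2.62, 0.265 and 0.308 CPM in the corresponding Tem1WT/WT groups. It was at 1.14, 0.735 and 2.36 CPM in Tem1lacZ/lacZ sham scars and at 4.75, 0.801 and 0.942 CPM under traction. The 2 subunits rose and fell together from library to library, and both had their highest level in replicate 1 of the Tem1lacZ/lacZ traction group.

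**Figure D1:**
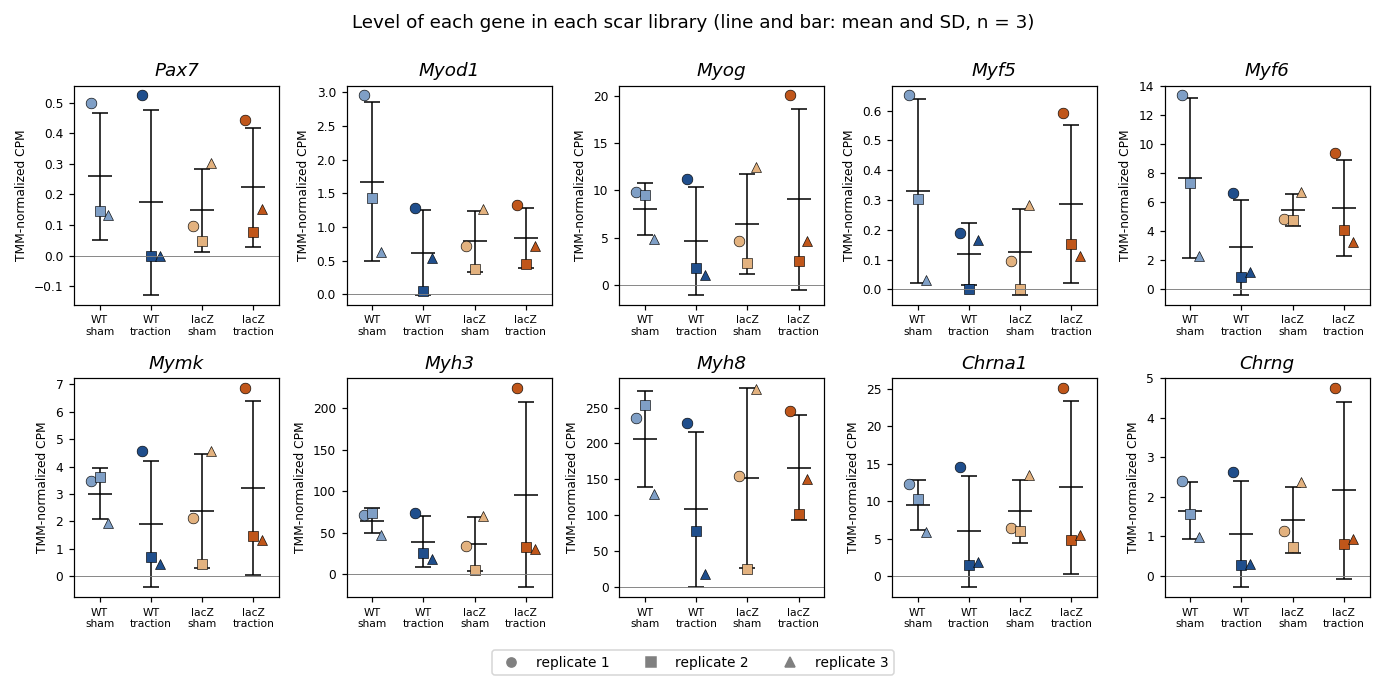
Level of each of the 10 genes in each of the 12 libraries (vertical axis, TMM-normalized CPM) by group (horizontal axis), where points are libraries, bars are the mean ± SD of 3 mice, and WT and lacZ stand for Tem1WT/WT and Tem1lacZ/lacZ. The groups overlapped for all 10 genes, and replicate 1 was the highest of its traction group for all 10 in both genotypes.

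The groups overlapped for all 10 genes in all 4 pairwise comparisons. Over all genes tested, 17.7% were higher and 18.0% lower without overlap under traction in Tem1WT/WT mice, 6.77% and 6.16% under traction in Tem1lacZ/lacZ mice, 13.0% and 13.8% in Tem1lacZ/lacZ against Tem1WT/WT sham scars, and 12.9% and 13.7% between the genotypes under traction. The spread lay more between mice of a group than between groups. Of the variance of log2(CPM + 0.1) of each gene, 12.5% to 35.3% lay between the 4 groups, with a median of 20.9% over the 10 genes. This share was not computed for all genes tested, so it does not set the 10 genes apart from others. The same libraries led for the whole set. Replicate 1 of the Tem1WT/WT traction group, replicate 1 of the Tem1lacZ/lacZ traction group and replicate 3 of the Tem1lacZ/lacZ sham group were each the highest of their group for all 10 genes, and replicate 3 of the Tem1WT/WT sham group and replicate 2 of the Tem1lacZ/lacZ sham group were each the lowest of theirs for all 10. Replicate 1 of the Tem1lacZ/lacZ traction group held the highest level of all 12 libraries for 5 genes, and replicate 2 of the Tem1WT/WT traction group held the lowest for 6.

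In Tem1WT/WT mice, all 10 genes had a lower fitted level under traction than in sham, but none passed the test. The log2 fold changes ran from -0.56 (Pax7, SE 1.30) to -1.44 (Myf5, SE 1.26). Myod1 was at -1.42 (SE 0.89, adjusted p = 0.296) and Myf6 at -1.41 (SE 0.80, 95% interval -3.16 to 0.34, adjusted p = 0.248), the smallest adjusted p of the set. By edgeR's quasi-likelihood test with Benjamini-Hochberg adjustment, 0 of 10 genes passed an adjusted p of 0.05, against 9.15% of the 18853 genes tested, and 0 of 10 passed an unadjusted p of 0.05, against 31.4%. The DESeq2 Wald test and limma-voom with sample weights also called 0 of 10, with 0 and 4 genes at an unadjusted p under 0.05, against 34.0% and 26.1% of all genes. The median log2 fold change of the 10 genes was -0.75, beside -0.01 over all genes tested, of which 50.6% were below 0. It was -1.85 by limma-voom and -1.30 with the replicate block. Markers of other cell types moved in the same comparison. The summed dermal fibroblast markers were at 12271 to 16615 CPM in sham and at 19528 to 53884 CPM under traction, and the neutrophil markers at 15.8 to 74.7 CPM and at 228 to 5766 CPM, both without overlap, and their part in the levels of the 10 genes was not tested. In Tem1lacZ/lacZ mice the neutrophil markers did not overlap either, at 135 to 167 CPM in sham and 191 to 478 CPM under traction. Between genotypes in sham, neutrophil, keratinocyte and Schwann cell markers did not overlap, and the part of these was not tested.

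The 3 mice behind this comparison did not move alike. Against the range of the 3 sham libraries of the same genotype, replicate 2 of the Tem1WT/WT traction group was below it for all 10 genes and replicate 3 for 9 (the exception was Myf5). Replicate 1 was above the sham range for Pax7, Myog, Mymk, Chrna1 and Chrng and within it for the other 5. It was also the library with 5766 CPM of neutrophil markers, and the part of this in its muscle genes was not tested. Without it, the median log2 fold change of the 10 genes became -2.51, and 8 of 10 genes had an unadjusted p under 0.05 (not Myf5 and Myh3), against 26.9% of all genes in the same fit, yet 0 of 10 passed the adjusted threshold. Myf6 was then at -2.93 (adjusted p = 0.0529), Chrna1 at -2.49 (adjusted p = 0.0755), Chrng at -2.53 (adjusted p = 0.104) and Myog at -2.53 (adjusted p = 0.124), all by edgeR's quasi-likelihood test. Pax7 had 0 counts in both remaining traction libraries, so that its fitted change is no measure of size. Without replicate 2 or replicate 3 of the traction group, the median was -0.42 or -0.33, and without replicate 1 of the sham group it was -0.59.

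**Figure D2:**
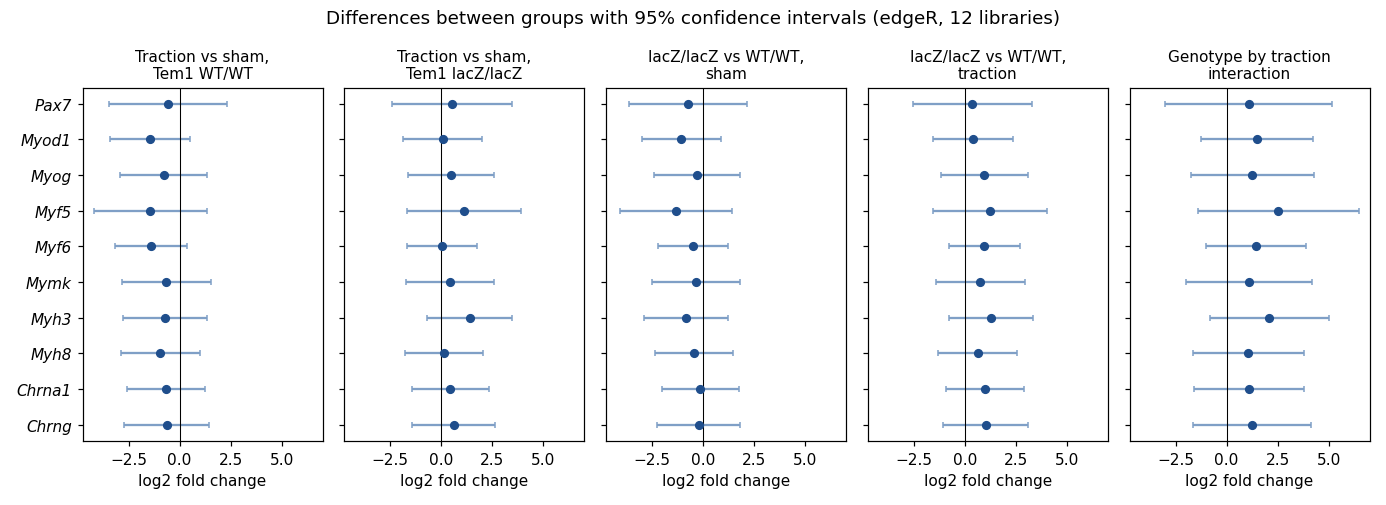
Fitted log2 fold change (horizontal axis) of each of the 10 genes (vertical axis) in the 5 comparisons (panels), where points are edgeR estimates and lines their 95% intervals. All 50 intervals reach across 0.

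In Tem1lacZ/lacZ mice, all 10 genes had a higher fitted level under traction than in sham, and again none passed the test. Myh3 had the highest value, 1.40 (SE 0.94, 95% interval -0.68 to 3.47, adjusted p = 0.687), followed by Myf5 at 1.10 (SE 1.26). The factors Myod1 and Myf6 were at 0.07 (SE 0.88) and 0.03 (SE 0.78). By edgeR, 0 of 10 genes passed an adjusted p of 0.05, against 0.0% of all genes tested, and 0 of 10 an unadjusted p of 0.05, against 8.12%. DESeq2 and limma-voom called 0 of 10 as well, with 0 genes at an unadjusted p under 0.05 by either. Of all 18853 genes, these 2 methods called 28 and 377, and 1847 and 5300 had an unadjusted p under 0.05. The median of the 10 genes was 0.47, beside -0.01 over all genes, of which 51.5% were below 0.

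This direction rested on 1 mouse. Replicate 1 of the Tem1lacZ/lacZ traction group was above the range of the sham libraries for 9 genes (all but Myh8), whereas replicates 2 and 3 were within it for 8 and below it for Myf6 and Chrna1. Replicate 1 was the library with 39971 CPM of keratinocyte markers, and the part of this was not tested. Without it, the fitted change was below 0 for 9 of 10 genes, Myf5 at 0.09 being the exception, and the median turned to -0.45. The values without it included -0.15 for Myh3, -0.80 for Myog and -0.69 for Chrna1. Limma-voom, which gives libraries unequal weights, also turned the median, to -0.54. Without replicate 1, 2 or 3 of the sham group the median was 0.32, 0.12 or 1.27, and without replicate 2 or 3 of the traction group it was 0.88 or 0.79. With the replicate block it was 0.03.

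Between genotypes in sham scars, all 10 genes had a lower fitted level in Tem1lacZ/lacZ than in Tem1WT/WT mice. The values ran from -0.14 (Chrna1, SE 0.86) to -1.31 (Myf5, SE 1.25), and Myod1 was at -1.07 (SE 0.88, adjusted p = 0.630). By edgeR 0 of 10 passed, against 0.0106% of all genes, with 0 of 10 at an unadjusted p under 0.05, against 11.7%. DESeq2 and limma-voom also called 0 of 10, with 0 unadjusted. Of all 18853 genes, they called 43 and 1, and 2555 and 4369 had an unadjusted p under 0.05. The median was -0.46, beside -0.01 over all genes, of which 51.4% were below 0. It was -1.23 without replicate 3 and -0.14 without replicate 2 of the Tem1lacZ/lacZ sham group, -0.20 without replicate 1 and -0.79 without replicate 3 of the Tem1WT/WT sham group, and -0.11 by limma-voom.

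Between genotypes under traction, all 10 genes had a higher fitted level in Tem1lacZ/lacZ mice. Myh3 was at 1.28 (SE 0.94, adjusted p = 0.404), Myf5 at 1.23 (SE 1.28), Chrng at 1.03 (SE 0.94), Chrna1 at 0.98 (SE 0.87) and Myog at 0.96 (SE 0.97). By edgeR 0 of 10 passed, against 0.106% of all genes, and 0 of 10 had an unadjusted p under 0.05, against 26.1%. DESeq2 and limma-voom again called 0 of 10, with 0 unadjusted. Of all 18853 genes, they called 2334 and 16, and 5387 and 3115 had an unadjusted p under 0.05. The median was 0.96, beside 0.01 over all genes, of which 49.0% were below 0. It moved in opposite directions without replicate 1 of either traction group. It was 2.48 without replicate 1 of the Tem1WT/WT traction group, with 6 of 10 genes at an unadjusted p under 0.05, against 20.4% of all genes in that fit, and -0.22 without replicate 1 of the Tem1lacZ/lacZ traction group. Without replicate 2 or 3 of the Tem1WT/WT traction group it was 0.52 or 0.51.

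Whether traction acted otherwise without Tem1 was tested by the interaction of genotype and traction. All 10 values were above 0, from 1.07 (Myh8, SE 1.24) to 2.54 (Myf5, SE 1.79), and Myh3 was at 2.103 (SE 1.32, unadjusted p = 0.140, adjusted p = 0.619 by edgeR's quasi-likelihood test). By edgeR 0 of 10 passed, against 0.0% of all genes, and 0 of 10 had an unadjusted p under 0.05, against 8.91%. DESeq2 and limma-voom called 0 of 10, with 0 unadjusted. Of all 18853 genes, they called 69 and 0, and 2062 and 1917 had an unadjusted p under 0.05. The difference between the genotypes in the response of these genes to traction was therefore not detectable with 3 mice a group. The median was 1.26, beside -0.00 over all genes, and it was 2.97 without replicate 1 of the Tem1WT/WT traction group, with 6 of 10 genes at an unadjusted p under 0.05 against 7.98% of all genes, and 0.38 without replicate 1 of the Tem1lacZ/lacZ traction group. Without replicate 3 of the Tem1lacZ/lacZ sham group it was 2.02. The 5 comparisons share libraries, so that the directions above are not independent of one another.

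The 10 genes moved with the amount of muscle RNA in each scar. As a measure of it, the mean of log2(CPM + 0.1) was taken over 22 genes of mature skeletal muscle, such as Acta1, Ckm and Myh1, and is called the mature muscle index. It was 8.71, 6.89 and 5.55 in the Tem1WT/WT sham group and 6.11, 3.62 and 4.17 under traction. In the Tem1lacZ/lacZ groups it was 6.42, 5.31 and 6.87 in sham and 6.68, 5.83 and 5.82 under traction. Replicate 1 of the Tem1WT/WT sham group was thus the richest in muscle and replicate 2 of the Tem1WT/WT traction group the poorest, and the summed level of the 22 genes was 20943 CPM in the first and 529 CPM in the second. In whole tissue, fewer muscle cells and less RNA per muscle cell cannot be told apart.

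Myf6, the factor of mature fibres, followed the index most closely, with Pearson's r = 0.93 and Spearman's rho = 0.93 over 12 libraries (permutation adjusted p = 0.0001 and 0.0007, over the 10 genes). Myod1 had r = 0.90 (permutation adjusted p = 0.0007), and Chrng, Chrna1 and Pax7 each had r = 0.81 (permutation adjusted p = 0.00332). Myog had r = 0.78, Myf5 r = 0.77, Mymk r = 0.75 and Myh8 r = 0.71, with permutation adjusted p from 0.00353 to 0.0109. Myh3 was the exception by Pearson's r, at 0.56 (permutation adjusted p = 0.056), although its rank correlation was 0.81 (permutation adjusted p = 0.00317). Spearman's rho was 0.75 to 0.93 over the 10 genes. The share of all genes tested that followed the index was not counted, so these values do not set the 10 genes apart from others. The permutations ran over all 12 libraries without regard to group.

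Leaving out the libraries farthest from the median of the index (replicate 1 of the Tem1WT/WT sham group and replicate 2 of the Tem1WT/WT traction group) left r between 0.54 and 0.90. Myf5 had the lowest of these, 0.54 (permutation p = 0.111), with a rank correlation of 0.70, whereas Myh3 then had r = 0.66 and Myh8 r = 0.90. Within groups, after the mean of each of the 4 groups was subtracted, r was 0.65 to 0.92, and the lowest were Myh3 and Myh8. The relation was therefore present among mice of the same genotype and treatment. Some of the 22 genes, such as Tnni1, were among those most like single members (below), and all values of a library share its depth and its dissection.

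**Figure D3:**
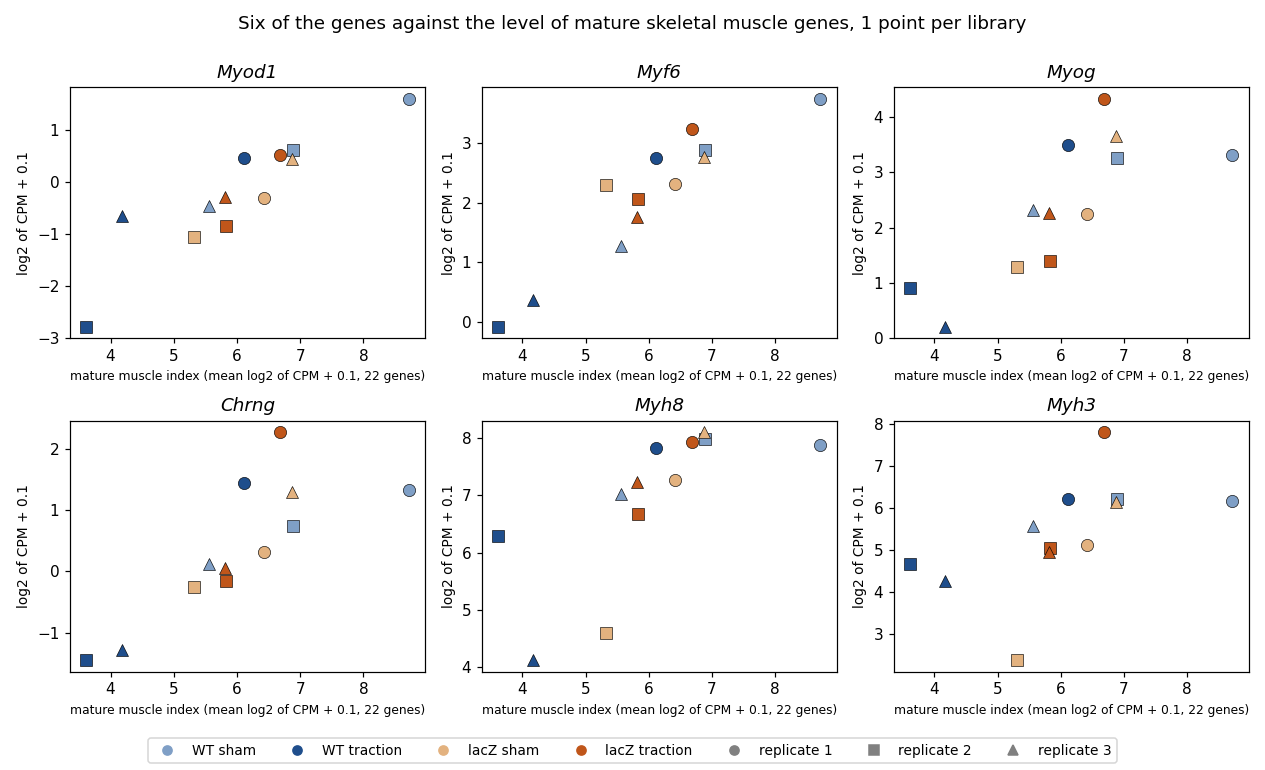
Level of Myod1, Myf6, Myog, Chrng, Myh8 and Myh3 (vertical axes, log2(CPM + 0.1)) against the mature muscle index (horizontal axis, mean log2(CPM + 0.1) of 22 mature muscle genes) in 12 libraries, coloured by group (WT for Tem1WT/WT, lacZ for Tem1lacZ/lacZ) and shaped by replicate. Myf6 and Myod1 lie closest to a line (r = 0.93 and 0.90), and Myh3 lies farthest from one (r = 0.56).

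With the mature muscle index as a covariate in the edgeR model, the direction of the traction comparison in Tem1WT/WT mice turned for all 10 genes. The log2 fold change was 1.98 for Myf5, 1.63 for Pax7, 0.97 for Chrng, 0.92 for Mymk, 0.82 for Myh3, 0.76 for Myog, 0.72 for Chrna1, 0.62 for Myod1, 0.51 for Myf6 and 0.45 for Myh8, with 0 of 10 past the threshold. The median in Tem1lacZ/lacZ mice stayed above 0, at 0.57. The median between genotypes was 0.02 in sham and -0.16 under traction, and that of the interaction was -0.37. The index is itself an outcome of the experiment that was correlated with the 10 genes, and with it in the model 0 of all 18853 genes passed for traction in Tem1WT/WT mice, so that these values are a description. In these tissues a smaller share of muscle in the piece of skin taken and a loss of muscle under traction cannot be told apart.

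**Figure D4:**
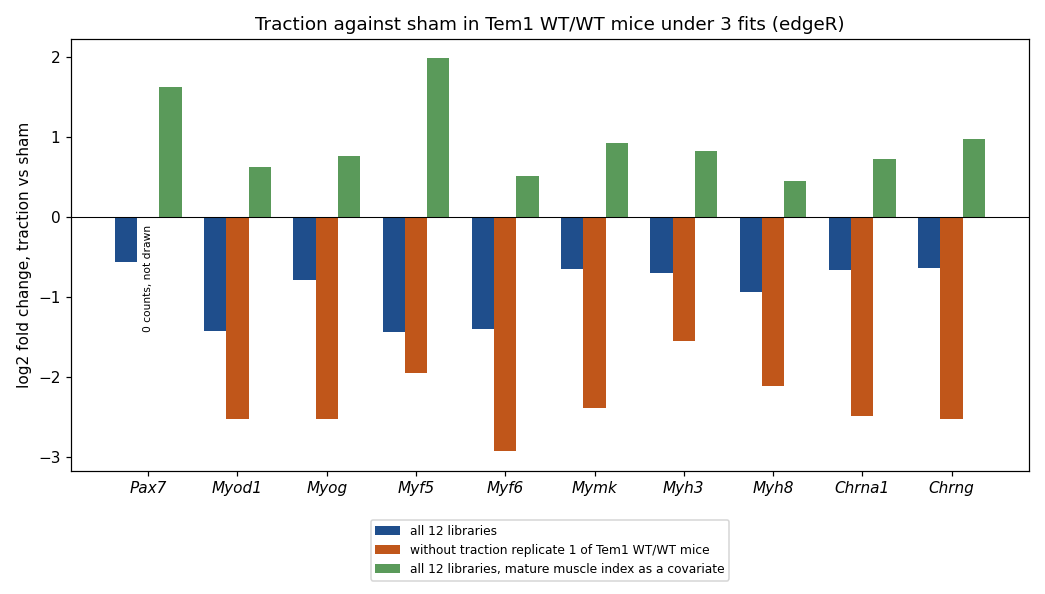
Log2 fold change under traction in Tem1WT/WT mice (vertical axis) of each of the 10 genes (horizontal axis), where bars are the estimates, without their errors, of 3 fits: all 12 libraries, without replicate 1 of the traction group, and with the mature muscle index as a covariate. Values were below 0 in the first 2 fits and above 0 in the last for all genes drawn, and Pax7 without replicate 1 is not drawn because both remaining traction libraries had 0 counts.

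The same was asked without a model, from the CPM of each gene divided by the summed CPM of the 22 mature muscle genes in that library, a ratio chosen after the data were seen. In Tem1WT/WT mice the median of this ratio was higher under traction for 9 of 10 genes, but so it was for 97.5% of all genes tested, since the divisor was lower. It did not overlap between the groups for Myf6, Myh3 and Chrng, 3 of 10, against 18.1% of all genes. In Tem1lacZ/lacZ mice the median was higher for 7 of 10, against 80.7% of all genes, and the groups overlapped for all 10, against 1.57% of all genes without overlap.

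The balance of developmental to adult myosin was taken from RNA alone, and no fibres were counted. The developmental share, chosen as a measure after the data were seen, is the CPM of Myh3 and Myh8 as a percentage of the CPM of Myh3, Myh8 and the adult myosins Myh1, Myh2, Myh4 and Myh7, with no correction for length. It was 3.51%, 12.7% and 19.4% in the Tem1WT/WT sham group and 21.8%, 34.7% and 17.0% under traction. It was 12.8%, 5.52% and 17.1% in the Tem1lacZ/lacZ sham group and 29.1%, 12.5% and 18.8% under traction. The medians were 12.7% and 21.8% in Tem1WT/WT and 12.8% and 18.8% in Tem1lacZ/lacZ mice, and sham and traction libraries overlapped in both genotypes. The low value of 3.51% was in the library richest in muscle, where the adult myosins summed to 8462 CPM, against 177 to 2258 CPM in the other 11 libraries. Embryonic Myh3 made up 17.0% to 26.9% of the developmental pair in 10 libraries and 52.7% and 47.7% in the other two, replicate 3 of the Tem1WT/WT traction group and replicate 1 of the Tem1lacZ/lacZ traction group.

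The gamma subunit of the fetal receptor was counted more often than the epsilon subunit of the adult receptor. Chrng had 897 counts in all and Chrne 106, or 215 and 62.7 counts per kb of exon. Chrng was the higher per kb in 12 of 12 libraries, although in the library richest in muscle they were close, at 26.7 and 23.1 counts per kb. Chrne was at 0 in 2 libraries and under 10 counts in 9, with at most 39. Of the other subunits, Chrnb1 had log2 fold changes of -0.56 and 0.13 under traction in Tem1WT/WT and Tem1lacZ/lacZ mice, and Chrnd had -0.43 and 0.54. Chrne was at -1.65 (SE 1.44) and 0.62 (SE 1.42). None of the 3 passed the test in any of the 5 comparisons, nor did Chrna1 or Chrng.

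**Figure D5:**
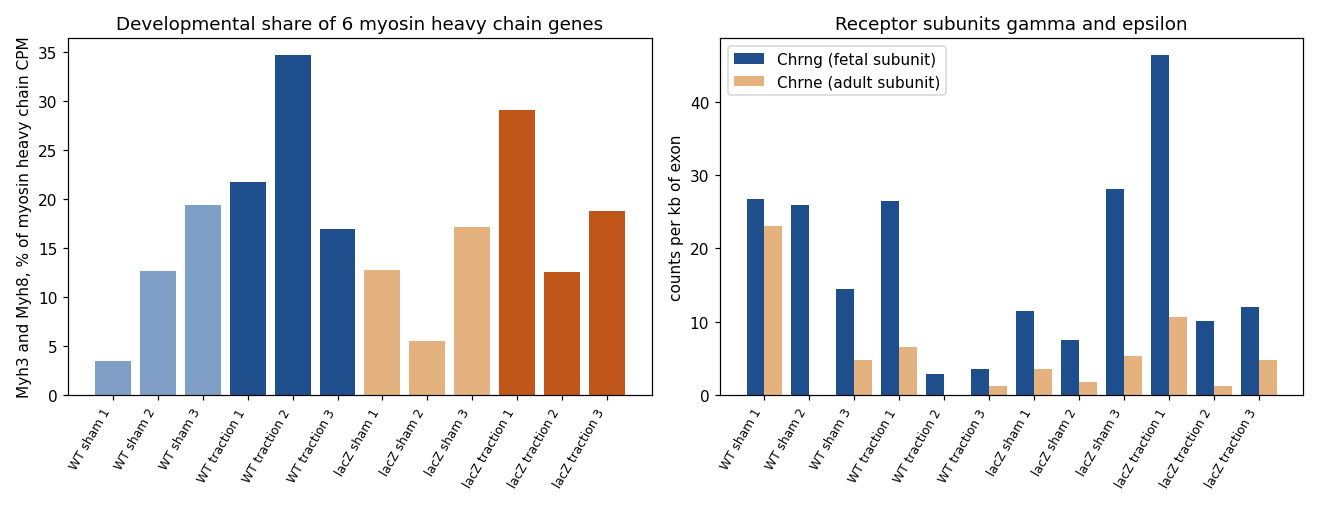
Left, the CPM of Myh3 and Myh8 as a percentage of the 6 myosins (vertical axis), 1 bar for each library (horizontal axis, WT for Tem1WT/WT and lacZ for Tem1lacZ/lacZ, with the replicate number). Right, counts per kb of exon of Chrng and Chrne (vertical axis) in the same libraries, where the bar of Chrng is the higher in all 12.

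Other genes of the pathway were counted in 4 lists. In Tem1WT/WT mice under traction, 1 of 17 satellite cell and myoblast genes was lower, namely Mstn, which is made chiefly by muscle fibres. Of 10 genes of immature or regenerating fibres, 1 was higher (Ncam1), although 8 of the 10 had a fitted change below 0. Of 9 genes of the neuromuscular junction, 1 was lower (Ache), and 0 of 22 mature muscle genes passed. These counts stand beside the 9.15% of all genes called. The lists had median log2 fold changes of 0.14, -1.17, -0.56 and -2.73, beside -0.01 over all genes. All 22 mature muscle genes were below 0, 17 with an unadjusted p under 0.05 (31.4% of all genes), and the smallest adjusted p was 0.0516 by edgeR. The DESeq2 Wald test called 14 of the 22 lower, against 21.5% of all genes in either direction, and limma-voom called 0, with 18 and 17 at an unadjusted p under 0.05. In the other 4 comparisons edgeR called 0 genes of any of the 4 lists. The medians in the same order were 0.39, 0.26, 0.36 and -0.28 under traction in Tem1lacZ/lacZ mice, -0.63, -0.43, -0.56 and -1.28 between genotypes in sham, -0.19, 0.68, 0.42 and 1.20 between genotypes under traction, and 0.23, 0.79, 1.04 and 2.29 for the interaction. The most plentiful genes of the lists were Mef2a (131 CPM), Nes (52.8 CPM), Lrp4 (41.9 CPM) and Myh1 (944 CPM), each as the mean of 12 libraries.

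The 3 genes that passed in Tem1WT/WT mice were Mstn, Ncam1 and Ache. Mstn, a secreted brake on muscle growth made chiefly by muscle fibres, was at 26.9, 5.61 and 0.589 CPM in sham and at 0.143, 0.155 and 0.164 CPM under traction, from 6 to 8 counts. Its log2 fold change was -6.14 (SE 1.31, adjusted p = 0.0314 by edgeR). Scars without Tem1 had Mstn at 4.71, 0.759 and 2.89 CPM in sham and at 2.51, 0.629 and 1.21 CPM under traction, where the groups overlapped.

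Ncam1, a cell adhesion protein of young muscle fibres that nerves also carry, was at 23.2, 35.2 and 26.5 CPM in sham and at 45.5, 59.0 and 82.0 CPM under traction in Tem1WT/WT mice. It rose by 1.14 on the log2 scale (SE 0.26, adjusted p = 0.0329 by edgeR). Without Tem1 it was at 22.03, 13.9 and 18.3 CPM in sham and at 30.7, 46.1 and 35.8 CPM under traction. These groups did not overlap either, with a log2 fold change of 1.05 (SE 0.26, adjusted p = 0.598), and the interaction was -0.08 (SE 0.36).

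Ache, the enzyme that clears acetylcholine at the junction, was at 15.5, 5.77 and 4.50 CPM in sham and at 1.55, 2.54 and 2.49 CPM under traction in Tem1WT/WT mice. Its log2 fold change was -1.97 (SE 0.45, adjusted p = 0.0329 by edgeR), and in Tem1lacZ/lacZ mice it was -0.04 (SE 0.43). Mstn and Ache had their highest level in replicate 1 of the Tem1WT/WT sham group, the library richest in muscle. The 3 calls were kept in 12 of 20 (Mstn), 14 of 21 (Ncam1) and 13 of 21 (Ache) other settings. All 3 were lost without replicate 1 or 2 of the Tem1WT/WT sham group, without replicate 3 of the Tem1WT/WT traction group, without replicate 3 of the Tem1lacZ/lacZ sham group, with only the 6 libraries compared and with the mature muscle index as a covariate. Mstn and Ache were also lost without replicate 1 of the Tem1WT/WT traction group and by limma-voom, and Ncam1 without replicate 3 of the Tem1WT/WT sham group. The fitted changes kept their sign in these settings, at -1.82 to -6.67 for Mstn, 0.88 to 1.34 for Ncam1 and -1.16 to -2.26 for Ache over all settings. No gene at all passed without replicate 1 or 2 of the Tem1WT/WT sham group, with only the 6 libraries or with the covariate, by edgeR.

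The members were alike among themselves over the 12 libraries. Over the 45 pairs, Pearson's r of log2(CPM + 0.1) was 0.52 to 0.99, with a median of 0.82, and the median within groups was also 0.82. These values are a description, since all genes of a library share its muscle content and depth. The closest pair by Pearson's r was Chrna1 and Chrng (r = 0.988), the receptor subunits whose promoters are shown above. By Spearman's rho it was Mymk and Myh3 (0.958), with Chrna1 and Chrng at 0.951. Myh3 and Myh8 had r = 0.832, and Pax7 and Myog had r = 0.923. The least alike by Pearson's r were Myf6 and Myh3 (r = 0.515), but their Spearman's rho was 0.783. By Spearman's rho the least alike were Myf5 and Chrna1 (0.676).

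The genes most like each member, among all genes tested, differed. For Myf6 these were Klhl41 (r = 0.966), Pdlim3 (0.961) and Klhl40 (0.957), genes of the sarcomere, and for Myod1 they were Cacna1s (0.962), the calcium channel of the muscle membrane, Hfe2 (0.940) and Rbm24 (0.938). Myog was closest to Tnni1 (0.979), the slow fibre troponin, then Cav3 (0.972) and Chrng (0.966). Pax7 was closest to Chrnd (0.955), Chrng (0.947) and Cav3 (0.938). The receptor genes had Tnni1 and Lrrn1 next to each other in both lists, at 0.957 and 0.972 for Chrna1 and at 0.973 and 0.972 for Chrng.

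Mymk was closest to Myog (0.956), then Msln (0.952) and Tnni1 (0.949), and Myh3 was closest to Msln (0.963), a surface protein of mesothelium, then Mymk (0.919) and Cdh15 (0.871), the cadherin of satellite cells. Myh8 was closest to 1810041L15Rik (0.958), Mymk (0.920) and Myl4 (0.913), the embryonic myosin light chain. Myf5 had Reep1 (0.924), Dusp27 (0.892) and Ank1 (0.889). The number of genes with r over 0.9 was 56 for Myf6, 20 for Myog, 2 for Myh3 and 1 for Myf5. All r here are Pearson's, over 12 libraries.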

How the data were processed

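RNA of 12 scars was sequenced after a stranded mRNA library preparation, and per the submitters' notes reads were trimmed with fastp 0.20.0, aligned to GRCm38 with HISAT2 2.1.0 and counted per gene with featureCounts 2.0.0. The annotation, the strand setting and the treatment of read pairs and of reads with several hits are not given in the sources used here. In each library, 62.1% to 66.2% of counts from 1 to 20 were even. If both reads of a pair were counted, a fragment would stand for 2 counts, and the fragments behind each low count and behind the floor would be fewer than the counts given. The deposited values are raw counts per gene, made by the authors, with no normalization. Libraries held 41536788 to 64644293 counts.

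Counts were fitted in R 4.3.3 with edgeR 4.0.16 (filterByExpr, TMM, robust quasi-likelihood test, two-sided) in 1 model of the 4 groups, with 18853 genes tested and Benjamini-Hochberg adjustment over all of them at a threshold of 0.05. The biological coefficient of variation was 34.2%. The 3 replicates of a group were separate mice. Alternatives were other filters on low counts, DESeq2 1.42.0 size factors and Wald test, upper quartile normalization, limma 3.58.1 (voom with sample weights), a replicate block, only the libraries compared, the mature muscle index as a covariate, and each library left out in turn. Correlations used permutation tests with 100000 resamples in Python 3.11.15, and the smallest p they can give is 1e-05. The tests were checked on simulated data. A floor of 3 counts was used for libraries at 0, and this floor covers counting error only. The intervals of the edgeR fits also include the spread between mice of a group.

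Named were all 10 genes, the other receptor subunits Chrnb1, Chrnd and Chrne, each listed gene past the threshold, the most plentiful gene of each list, and the 3 genes most like each of the 10 by Pearson's r. The 10 genes and all lists were chosen with earlier results of these data known. The myosin share, the ratio to mature muscle genes, the comparison of Chrng with Chrne per kb and the choice of promoters shown were made after the values were seen. Exon lengths are from GENCODE vM21, and promoters from the RefSeq table of GRCm38.p6.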

Additional observations from a re-analysis of the deposited data

Results flagged for a closer look

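Myf5, which opens the myoblast programme, had a lower level under traction in Tem1WT/WT mice and a higher one in Tem1lacZ/lacZ mice, and neither change passed the test (log2 fold changes of -1.44, SE 1.26, and 1.10, SE 1.26). Its level was below the sham mean in each Tem1WT/WT traction library and above the sham mean in each Tem1lacZ/lacZ traction library, on the scale of log2(CPM + 0.1). The mean change in Tem1lacZ/lacZ mice exceeded that in Tem1WT/WT mice by 1.57 on this scale. The difference itself was tested as the interaction of genotype and traction in edgeR, which gave 2.54 (SE 1.79, adjusted p = 0.653). The difference was thus not detected, and its confidence interval of -1.38 to 6.47 was too wide to exclude a large one. With the mature muscle index as a covariate both changes were above 0, at 1.98 and 1.41. The libraries held 0 to 30 counts of Myf5.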

How the results depend on the processing

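In all 5 comparisons and every alternative, 0 of the members tested passed the adjusted threshold (7 of the 10 remained with at least 10 counts in every library, and 8 or 9 with only the 6 libraries compared, which was not run for the interaction). The number of all genes called was far less steady. For traction in Tem1WT/WT mice it was 1725 as reported, 1011 with every gene of at least 1 count, 4047 by DESeq2, 735 by limma-voom, 0 with only the 6 libraries compared, 0 with the mature muscle index as a covariate and 0 to 2861 with 1 library left out. Between genotypes under traction it was 20 as reported, 2334 by DESeq2 and 3 to 1421 with 1 library left out. By DESeq2, 5 listed genes other than the 10 (lists of 17, 10, 9 and 22 genes) passed between genotypes under traction and 1 in the interaction. Of all 18853 genes, 2334 and 69 passed in these comparisons. By limma-voom, 1 listed gene passed for traction in Tem1lacZ/lacZ mice, beside 377 of all genes. Upper quartile normalization moved the median of all genes to -0.12 for traction in Tem1WT/WT mice and to 0.14 between genotypes under traction. The labels do not say whether replicate numbers pair the mice. Deviations from the group means had r of -0.36 to 0.28 (median 0.096) between libraries of the same number. Between others r was -0.44 to 0.41 (median -0.019), and these overlapping ranges cannot decide whether mice were paired. With the replicate block, 0 members passed in each comparison and 1467 genes passed for traction in Tem1WT/WT mice.

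Directions that turned are given as log2 fold changes, and the cause was not tested. With the mature muscle index as a covariate these were, for traction in Tem1WT/WT mice, Pax7 (1.63), Myod1 (0.62), Myog (0.76), Myf5 (1.98), Myf6 (0.51), Mymk (0.92), Myh3 (0.82), Myh8 (0.45), Chrna1 (0.72) and Chrng (0.97), for traction in Tem1lacZ/lacZ mice Myf6 (-0.056), between genotypes in sham Pax7 (0.27), Myog (0.093), Myf6 (0.63), Chrna1 (0.46) and Chrng (0.40), between genotypes under traction Pax7 (-0.59), Myod1 (-0.59), Myog (-0.12), Myf5 (-0.63), Mymk (-0.35) and Myh8 (-0.21), and for the interaction Pax7 (-0.86), Myod1 (-0.40), Myog (-0.21), Myf5 (-0.57), Myf6 (-0.57), Mymk (-0.30), Myh8 (-0.025), Chrna1 (-0.36) and Chrng (-0.39). With limma-voom they were, for traction in Tem1lacZ/lacZ mice, Pax7 (-0.37), Myod1 (-0.47), Myog (-0.79), Myf6 (-0.61), Mymk (-0.64), Myh8 (-0.076), Chrna1 (-0.72) and Chrng (-0.67), and in sham Myf6 (0.17), Chrna1 (0.21) and Chrng (0.19). With the replicate block they were, for traction in Tem1lacZ/lacZ mice, Myod1 (-0.041), Myog (-0.094), Myf6 (-0.32) and Chrna1 (-0.15), and in sham Chrna1 (0.020). Upper quartile normalization turned Myf6 (-0.0012) for traction in Tem1lacZ/lacZ mice. Leaving out 1 library at a time turned, for traction in Tem1WT/WT mice, Pax7 (-6.68 to 0.30), for traction in Tem1lacZ/lacZ mice Pax7 (-0.36 to 1.60), Myod1 (-0.38 to 0.62), Myog (-0.80 to 1.38), Myf6 (-0.52 to 0.29), Mymk (-0.72 to 1.34), Myh3 (-0.15 to 2.28), Myh8 (-0.35 to 0.91), Chrna1 (-0.69 to 0.94) and Chrng (-0.65 to 1.21), in sham Pax7 (-1.81 to 0.12), Myog (-1.22 to 0.068), Myf6 (-0.90 to 0.18), Mymk (-1.25 to 0.14), Myh8 (-1.21 to 0.047), Chrna1 (-0.63 to 0.091) and Chrng (-0.82 to 0.14), between genotypes under traction Pax7 (-0.56 to 6.47), Myod1 (-0.13 to 1.53), Myog (-0.35 to 2.70), Mymk (-0.43 to 2.48), Myh3 (-0.28 to 2.12), Chrna1 (-0.18 to 2.80) and Chrng (-0.26 to 2.91), and for the interaction Myog (-0.020 to 3.03), Mymk (-0.069 to 2.84), Chrna1 (-0.023 to 2.96) and Chrng (-0.019 to 3.15). The highest of these values between genotypes under traction came without replicate 1 of the Tem1WT/WT traction group, and -6.68 and 6.47 for Pax7 were fitted against libraries at 0 counts.

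Of the correlations with the mature muscle index, 138 of 140 alternatives kept their side of the threshold. Without 1 library, r was 0.75 to 0.89 for Pax7, 0.87 to 0.95 for Myod1, 0.72 to 0.85 for Myog, 0.67 to 0.86 for Myf5, 0.89 to 0.95 for Myf6, 0.68 to 0.82 for Mymk, 0.52 to 0.64 for Myh3, 0.62 to 0.77 for Myh8, 0.72 to 0.89 for Chrna1 and 0.74 to 0.87 for Chrng. Myh3 passed without replicate 2 of the Tem1lacZ/lacZ sham group (permutation adjusted p = 0.0351), and Myh8 did not without replicate 3 of the Tem1WT/WT traction group (permutation adjusted p = 0.0717). Depth limits Pax7 and Myf5 most, with at most 23 and 30 counts in any library, and with 3 mice a group a change of 2 on the log2 scale lay within the 95% interval of every member in at least 1 comparison.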
